A study of Mus musculus with 6 samples.

Results

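De novo lipogenesis genes encode the enzymes that turn citrate into long-chain fatty acids in the cytosol, and the transcription factors that switch those enzymes on. The 10 genes described here were chosen by symbol from the deposited liver expression table. They are the factor genes Srebf1 and Mlxipl, the citrate and carboxylation genes Acly, Acaca and Acacb, the synthase gene Fasn, the NADPH gene Me1, and the elongation and desaturation genes Elovl6, Scd1 and Elovl5. All 10 were found among 17441 genes in the table, and all 10 were among the 13160 genes abundant enough to test.

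Gene expression was measured by RNA-seq of bulk liver in 6 mice. By their label, the 3 iKO livers come from mice in which tamoxifen induces a knockout of Nek7 in the whole body, and the 3 WT livers from wild-type mice. Nek7 encodes a mitotic kinase that also takes part in assembling the NLRP3 inflammasome. Every liver in both groups was taken 10 days after tamoxifen injection, so tamoxifen itself does not separate the groups. Strain, age, sex, feeding state, hour of collection and the promoter that drives the recombinase are not given in the sources used here. Nothing in the labels says how the animals of a group were related beyond a number for each, so p-values measure the spread between these samples.

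The liver makes fatty acids from surplus carbohydrate. Citrate leaves the mitochondrion, is split to acetyl-CoA, carboxylated to malonyl-CoA and built into palmitate, which is then lengthened and desaturated. Insulin and liver X receptors raise SREBP1, the product of Srebf1, while sugar metabolites activate ChREBP, the product of Mlxipl, and both factors bind promoters of the enzymes. Malonyl-CoA also restrains entry of fatty acids into mitochondria, which couples synthesis to oxidation.

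Libraries held between 18139500 and 19912000 expected counts, and the 10 genes together took between 0.615% and 1.44% of them. Nek7 stood at 50.2, 32.8 and 31.0 CPM in the livers labelled iKO and at 55.5, 40.5 and 36.4 CPM in WT livers (log2 fold change -0.22, SE 0.23; edgeR quasi-likelihood adjusted p = 0.541). The gene named by the label therefore did not set the groups apart, and the libraries are called labelled iKO for that reason. The gene total counts every exon and does not show whether a deleted part is missing. Y-linked Ddx3y gave 432, 640 and 670 counts in the livers labelled iKO, against 817 in WT 1, 0 in WT 2 and 0 in WT 3. Kdm5d, also Y-linked, likewise gave 0 in WT 2 and 0 in WT 3. Y-linked reads here and below means reads of Ddx3y and Kdm5d. Summed over 4 Y-linked genes, the level was 69.85, 105.4 and 95.24 CPM in the livers labelled iKO. In WT 1, WT 2 and WT 3 that sum was 129.2, 18.09 and 11.55 CPM. WT 2 and WT 3 thus stand apart from the other 4 libraries in Y-linked reads. A list of 15 sex-biased liver genes summed to 33250, 10670 and 7584 CPM in the livers labelled iKO. In WT 1, WT 2 and WT 3 it summed to 25850, 1300 and 1972 CPM, and 0 of its 13 tested genes were called. The labels give no sex, and whether the groups differ in sex was not tested. The split in Y-linked reads entered 2 further fits. They are a fit with a term for Y-linked reads and a fit to the 4 libraries that hold such reads. Of 19 tested clock genes, 9 rose and 3 fell in the livers labelled iKO, and 4 rose and 2 fell in either of these fits. Dbp, a clock output gene, stood at 99.8, 141 and 144 CPM in livers labelled iKO and at 0.793, 1.24 and 2.27 CPM in WT livers. The Y-linked reads can be separated from the label through WT 1 alone, and the clock values cannot be told apart from it.

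Srebf1 fell to 22.5% of its WT level in the livers labelled iKO and was the most strongly changed of the 10 genes. Acly, which makes cytosolic acetyl-CoA, also fell. The other 8 genes were not called, among them Fasn and Scd1, whose groups overlapped. No gene of the 10 was called higher. Across all tested genes 15.4% were called, with 8.07% lower and 7.31% higher, and a list of 10 at those shares would hold about 1 gene called in each direction. The median log2 fold change of the 10 genes was -0.46, beside -0.02 over all tested genes. That median of the 10 genes was -0.36 with a term for Y-linked reads and ran from -0.75 to -0.23 with 1 library left out. The groups did not overlap, with lower values in livers labelled iKO, for 3 of the 10 genes in CPM (19.2% of all tested genes) and for 5 of the 10 in FPKM (23.6% of all tested genes). CPM here is the count scaled to library size after TMM normalization, FPKM is the deposited value per transcript length, and a gene is called at an adjusted p under 0.05.

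**Figure D1:**
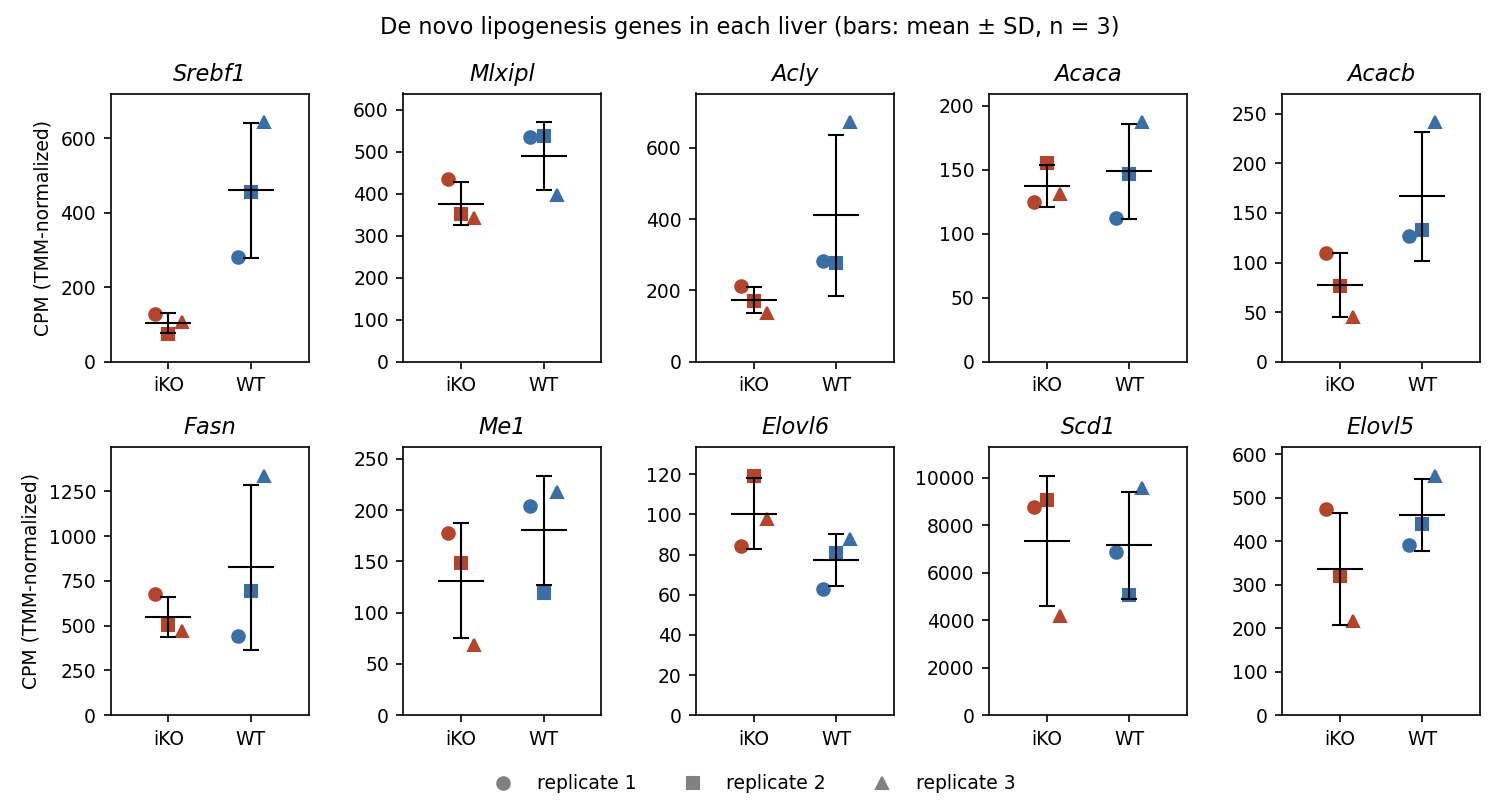
TMM-normalized CPM of the 10 de novo lipogenesis genes in each liver, with the livers labelled iKO in red left of WT livers in blue, and black bars for the mean ± SD of 3 livers. Srebf1, Acly and Acacb show no overlap between the groups, with the WT values of Srebf1 between 282 and 644 CPM and those of the livers labelled iKO between 75.0 and 128 CPM.

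Upstream sequence was read for the genes the comparison turns on: Srebf1 and Acly, which fell, Acacb, whose groups did not overlap, and Fasn, the textbook target, whose groups did. Each is the 250 bases before the annotated start in RefSeq (GRCm38.p6, a later build than the mm9 of the deposited table), written 5′ to 3′ on the gene's own strand. Capitals mark CCAAT boxes (CCAAT or its complement ATTGG) and GC boxes (GGGCGG or CCGCCC). Srebf1 has 3 annotated starts in that table, and the window shown is that of the most downstream one, chr11:60210472-60210721, minus strand. The window of Acly is chr11:100528001-100528250, minus strand, that of Acacb is chr5:114165268-114165517, plus strand, and that of Fasn is chr11:120824548-120824797, minus strand.
Srebf1: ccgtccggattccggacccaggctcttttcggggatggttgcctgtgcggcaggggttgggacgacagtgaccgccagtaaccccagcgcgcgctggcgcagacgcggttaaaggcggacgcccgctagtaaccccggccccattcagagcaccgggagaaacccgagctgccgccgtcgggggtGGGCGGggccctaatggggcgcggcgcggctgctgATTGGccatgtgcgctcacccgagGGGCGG
Acly: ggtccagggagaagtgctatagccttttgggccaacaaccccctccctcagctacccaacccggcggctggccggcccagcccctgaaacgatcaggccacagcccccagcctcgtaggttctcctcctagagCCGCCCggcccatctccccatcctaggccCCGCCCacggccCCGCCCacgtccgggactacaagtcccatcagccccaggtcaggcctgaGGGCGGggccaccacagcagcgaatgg
Acacb: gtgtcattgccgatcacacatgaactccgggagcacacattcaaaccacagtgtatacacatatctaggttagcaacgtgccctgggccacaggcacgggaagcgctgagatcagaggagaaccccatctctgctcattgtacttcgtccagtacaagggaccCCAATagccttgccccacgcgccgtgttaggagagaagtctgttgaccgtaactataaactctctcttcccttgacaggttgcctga
Fasn: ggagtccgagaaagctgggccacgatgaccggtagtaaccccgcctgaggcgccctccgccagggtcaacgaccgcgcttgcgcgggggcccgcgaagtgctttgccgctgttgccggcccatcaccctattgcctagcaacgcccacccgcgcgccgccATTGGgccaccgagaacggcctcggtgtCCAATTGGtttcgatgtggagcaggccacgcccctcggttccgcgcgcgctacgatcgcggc

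The Acly window holds 4 GC boxes and no CCAAT box, with the box nearest the start beginning 27 bases before it. The Fasn window holds 3 CCAAT boxes and no GC box, and 2 of the 3, on opposite strands, overlap 62 and 59 bases before the start. The Srebf1 window holds 1 CCAAT box and 2 GC boxes, and the Acacb window holds 1 CCAAT box. Of the 10 genes, 9 had at least 1 window in the RefSeq table, all but Scd1. Counting all their windows, a CCAAT box was found for 6 of 9 genes and a GC box for 4 of 9 (Acly, Me1, Mlxipl and Srebf1). Among all 32851 windows of the same length, 33.8% held CCAAT and 32.7% held GGGCGG on either strand. The E-box CACGTG, the letters bound by ChREBP with Mlx and by USF factors, was found for Elovl5 and Mlxipl (2 of 9 genes) and in 6.02% of all windows. The sterol response element letters TCACNCCAC were found for Mlxipl alone (1 of 9 genes) and in 1.05% of all windows. A DR4-type repeat, a pair of exact GGTCA with NNNNN between them, was found in 0 of 9 genes and in 0.0639% of all windows. A repeat with a change in either copy would not be found, so this count does not show that such elements are absent. The shares of genes and of windows are unlike measures, because Srebf1 had 3 windows and Me1 and Mlxipl 2 each. These are matches of letters in a short window and say nothing of binding. Only the exact letters given were searched, with N for any base. Elements that depart from those letters would be missed, so a gene without a match may still hold such an element.

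Srebf1 (gene ID 20787) encodes SREBP1, the membrane-bound factor that is cut free to drive lipogenic promoters. It stood at 128, 75.0 and 107 CPM in the livers labelled iKO and at 282, 456 and 644 CPM in WT livers. Every liver labelled iKO lay below every WT liver, and the highest of them, at 128 CPM, was far under the lowest WT value of 282 CPM. The means were 103 ± 26.8 CPM in livers labelled iKO and 460 ± 181 CPM in WT livers (SD, n = 3 each). That gave a log2 fold change of -2.15 (SE 0.33, 95% interval -2.89 to -1.42; edgeR quasi-likelihood adjusted p = 0.00469), which puts livers labelled iKO at 22.5% of WT, interval 13.5% to 37.4%. Per transcript length the values were 23.7, 17.7 and 27.1 FPKM in livers labelled iKO against 66.4, 127 and 158 FPKM in WT livers.

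The call of Srebf1 held without each library in turn, the largest adjusted p being 0.0189. Within the 4 libraries that hold Y-linked reads the log2 difference was -1.44 and was no longer called (adjusted p = 0.0891), while a fit with a Y-linked term gave -1.45 (adjusted p = 0.0890). In both of these fits WT 1, at 282 CPM, is the WT library that carries the comparison. The gene total cannot separate the SREBP-1a and SREBP-1c transcripts, which start at different promoters. Exons of Srebf1 share 109 bases with Rai1 on the opposite strand in the reference annotation (GENCODE M21), and its expected counts were whole in 0 of 6 libraries, so some of its reads may have been shared out between genes. In bulk liver, fewer cells of a type and less RNA per cell cannot be told apart, here and for every gene below.

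Mlxipl (gene ID 58805) encodes ChREBP, the glucose-sensing partner of Mlx. It stood at 436, 352 and 341 CPM in livers labelled iKO and at 535, 537 and 397 CPM in WT livers. WT 3, the highest WT liver for Srebf1, was the lowest for Mlxipl and lay inside the range of the livers labelled iKO. This amounted to a log2 fold change of -0.38 (SE 0.21, 95% interval -0.86 to 0.10; edgeR quasi-likelihood adjusted p = 0.246). In FPKM the groups did not overlap, with 84.6, 87.5 and 89.2 FPKM in livers labelled iKO and 132, 157 and 101 FPKM in WT livers. The scales part at iKO 1, whose TMM factor of 0.780 was the smallest of the 6 and raises its CPM relative to its FPKM. The difference from the log2 fold change of Srebf1 was not tested.

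Acly (gene ID 104112) encodes ATP citrate lyase, which splits exported citrate to acetyl-CoA and oxaloacetate. It stood at 211, 170 and 138 CPM in livers labelled iKO and at 284, 278 and 671 CPM in WT livers. The groups did not overlap, but WT 3 stood far above the other WT livers, and the nearest values across the groups were 211 CPM in iKO 1 and 278 CPM in WT 2. The means were 173 ± 36.9 CPM in livers labelled iKO and 411 ± 225 CPM in WT livers (SD, n = 3 each). Its log2 fold change was -1.25 (SE 0.36, 95% interval -2.06 to -0.44; edgeR quasi-likelihood adjusted p = 0.0469), which puts livers labelled iKO at 42.1% of WT.

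That call sat close to the threshold and ended in 11 of 16 alternatives, always with the same direction. Without WT 3 the log2 fold change of Acly was -0.70 (adjusted p = 0.101), and a fit with a Y-linked term gave -0.71 (adjusted p = 0.450). The call also ended without WT 2 and without iKO 1, iKO 2 or iKO 3 (adjusted p up to 0.122), and it held without WT 1 (adjusted p = 0.0355) and with DESeq2 (adjusted p = 0.00332). Per transcript length the group means were 36.7 ± 2.65 FPKM in livers labelled iKO and 99.9 ± 52.3 FPKM in WT livers, a narrow range in the livers labelled iKO and a broad one in WT livers.

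Acaca (gene ID 107476) encodes acetyl-CoA carboxylase 1, the cytosolic carboxylase whose malonyl-CoA feeds the synthase. It stood at 125, 156 and 131 CPM in livers labelled iKO and at 112, 147 and 187 CPM in WT livers. The range of the livers labelled iKO lay wholly within that of WT livers. That gave a log2 fold change of -0.12 (SE 0.22, 95% interval -0.60 to 0.37; edgeR quasi-likelihood adjusted p = 0.742). Its sign turned in 4 of 16 alternatives, none of them called. A long stretch of Acaca, 6118 bases, is 99.2% identical to the pseudogene Gm5182 in the reference annotation (GENCODE M21). The expected counts of Acaca were whole in all 6 libraries, but whether Gm5182 was among the genes counted was not checked. Whole counts therefore do not settle where such reads were placed.

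Acacb (gene ID 100705) encodes acetyl-CoA carboxylase 2, the form at the mitochondrial surface whose malonyl-CoA restrains the carnitine shuttle. It stood at 110, 76.4 and 45.2 CPM in livers labelled iKO and at 126, 132 and 241 CPM in WT livers. The groups did not overlap, though iKO 1 and WT 1 were close to each other. This amounted to a log2 fold change of -1.11 (SE 0.36, 95% interval -1.94 to -0.28), which missed the threshold (edgeR quasi-likelihood adjusted p = 0.0701). It passed with DESeq2 (adjusted p = 0.0130), with limma-trend on log2(FPKM + 1) (adjusted p = 0.0264) and without iKO 1 (adjusted p = 0.0496). It was -0.75 without WT 3 (adjusted p = 0.181), -0.80 without iKO 3 (adjusted p = 0.143), -0.71 with a term for Y-linked reads (adjusted p = 0.482) and -0.70 in the libraries that hold such reads (adjusted p = 0.546).

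The balance of the carboxylase genes was compared within each liver, per transcript length. The ratio of Acaca to Acacb FPKM was 1.05, 1.87 and 2.68 in livers labelled iKO and 0.833, 1.04 and 0.731 in WT livers. All livers labelled iKO lay above all WT livers, though iKO 1 and WT 2 nearly met. The mean log2 ratio was 0.80 ± 0.68 in livers labelled iKO and -0.22 ± 0.26 in WT livers (SD, n = 3 each), a difference of 1.02. A 2-sided exact permutation test gave p = 0.1, which is the smallest p that 3 against 3 livers can give.

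**Figure D2:**
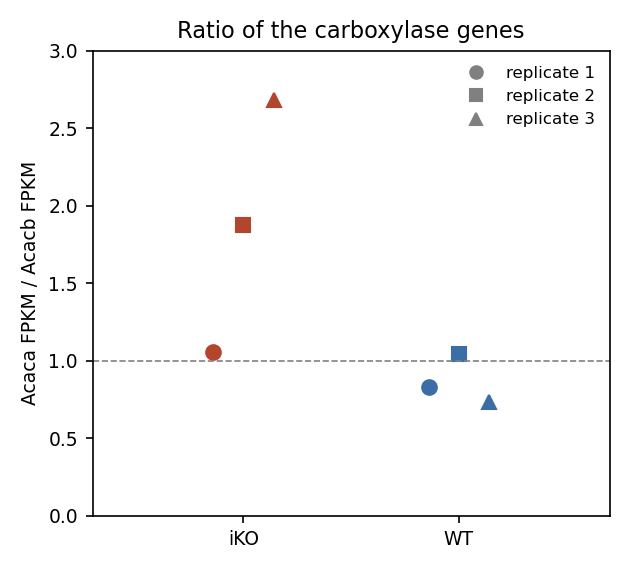
Ratio of Acaca to Acacb FPKM in each liver, livers labelled iKO left of WT livers, with the dashed line at equal levels. The ratio runs from 1.05 to 2.68 in livers labelled iKO and from 0.731 to 1.04 in WT livers.

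Fasn (gene ID 14104) encodes the multi-enzyme synthase that builds palmitate from malonyl-CoA and NADPH. It stood at 679, 501 and 472 CPM in livers labelled iKO and at 441, 696 and 1338 CPM in WT livers. WT 1 was the lowest of all 6 livers and WT 3 the highest, so the range of the livers labelled iKO lay inside the WT range. Its log2 fold change was -0.58 (SE 0.38, 95% interval -1.43 to 0.26; edgeR quasi-likelihood adjusted p = 0.311). Without WT 3 it was -0.05, and within the libraries that hold Y-linked reads it was 0.33, neither called. Mean levels were 551 ± 112 CPM in livers labelled iKO and 825 ± 462 CPM in WT livers (SD, n = 3 each).

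Me1 (gene ID 17436) encodes cytosolic malic enzyme, a source of NADPH for the synthase. It stood at 177, 148 and 68.4 CPM in livers labelled iKO and at 204, 120 and 218 CPM in WT livers. The groups overlapped, with iKO 3 well below the other 5 livers. That gave a log2 fold change of -0.46 (SE 0.36, 95% interval -1.28 to 0.36; edgeR quasi-likelihood adjusted p = 0.409). Stretches of Me1 match the pseudogene Gm7049 (1716 bases, 98.4% identical), so the level of Me1 carries some doubt. The expected counts of Me1 were whole in all 6 libraries, but whether Gm7049 was among the genes counted was not checked.

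Elovl6 (gene ID 170439) encodes the elongase that lengthens palmitate to stearate. It stood at 84.3, 119 and 97.7 CPM in livers labelled iKO and at 62.9, 80.9 and 87.9 CPM in WT livers. Its mean was 100 ± 17.7 CPM in livers labelled iKO and 77.2 ± 12.9 CPM in WT livers (SD, n = 3 each), but iKO 1 lay below WT 3 and the gene was not called (log2 fold change 0.38, SE 0.20, 95% interval -0.06 to 0.82; edgeR quasi-likelihood adjusted p = 0.213). The sign was positive in all 16 alternatives, and the smallest adjusted p among them was 0.0583, with a correction for transcript length.

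Scd1 (gene ID 20249) encodes the stearoyl-CoA desaturase that makes oleate, and its transcript was by far the most abundant of the 10. It stood at 8780, 9082 and 4172 CPM in livers labelled iKO and at 6856, 5052 and 9549 CPM in WT livers. The groups overlapped widely, and iKO 3 and WT 2 were the low livers. This amounted to a log2 fold change of 0.04 (SE 0.35, 95% interval -0.76 to 0.83; edgeR quasi-likelihood adjusted p = 0.953), an interval that leaves room for a change in either direction. Its sign turned in 6 of 16 alternatives, none called. Scd1 shares a 1053-base stretch at 91.4% identity with Scd3, and its expected counts were whole in 0 of 6 libraries.

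Elovl5 (gene ID 68801) encodes an elongase of unsaturated fatty acids. It stood at 474, 320 and 218 CPM in livers labelled iKO and at 391, 439 and 552 CPM in WT livers. Only iKO 1 reached the WT range. Its log2 fold change was -0.45 (SE 0.29, 95% interval -1.10 to 0.20; edgeR quasi-likelihood adjusted p = 0.309). In FPKM the groups did not overlap, with 137, 116 and 86.0 FPKM in livers labelled iKO and 142, 189 and 210 FPKM in WT livers.

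**Figure D3:**
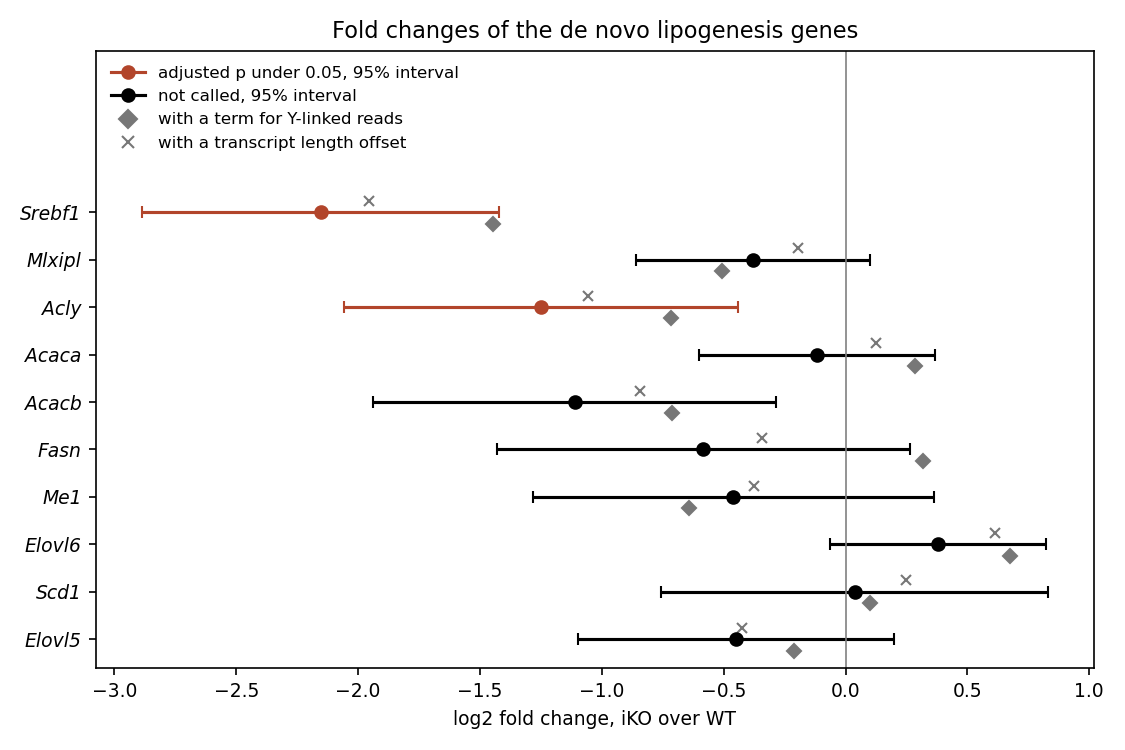
Log2 fold changes, livers labelled iKO over WT livers, of the 10 genes with 95% intervals (circles; red where adjusted p is under 0.05), beside the values with a term for Y-linked reads (diamonds) and with an offset for transcript length (crosses). Srebf1 stays far left of 0 in all of them at -2.15, -1.45 and -1.96, while the value of Fasn moves to the right of 0 at 0.32 with the term for Y-linked reads.

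Levels were ordered within each group per transcript length. In livers labelled iKO the order of mean FPKM was Scd1 (1411 ± 475), Elovl5 (113 ± 25.5), Mlxipl (87.1 ± 2.34), Fasn (54.0 ± 2.02), Me1 (38.4 ± 12.9), Acly (36.7 ± 2.65), Srebf1 (22.8 ± 4.78), Elovl6 (16.2 ± 4.59), Acaca (14.5 ± 3.27) and Acacb (8.40 ± 2.34; SD, n = 3 each). Among neighbours in that order, the ranges of Elovl5 and Mlxipl, of Me1 and Acly, of Srebf1 and Elovl6, and of Elovl6 and Acaca overlapped, and the other 5 pairs did not. In WT livers the order was Scd1 (1579 ± 437), Elovl5 (180 ± 34.6), Mlxipl (130 ± 27.8), Srebf1 (117 ± 46.6), Acly (99.9 ± 52.3), Fasn (94.3 ± 51.1), Me1 (60.5 ± 14.3), Acacb (20.9 ± 7.65), Acaca (17.7 ± 4.74) and Elovl6 (14.1 ± 3.01; SD, n = 3 each). In WT livers 7 of the 9 neighbouring pairs overlapped. The exceptions were Scd1 above Elovl5 and Me1 above Acacb. By mean, Srebf1 lay below Fasn, Me1 and Acly in livers labelled iKO and above them in WT livers, though Srebf1 exceeded Me1 in iKO 3 (27.1 against 23.6 FPKM) and lay just below Acly in WT 3 (158 against 160 FPKM). Acacb had the lowest mean in livers labelled iKO and a mean above those of Acaca and Elovl6 in WT livers, where its range overlapped that of Acaca.

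**Figure D4:**
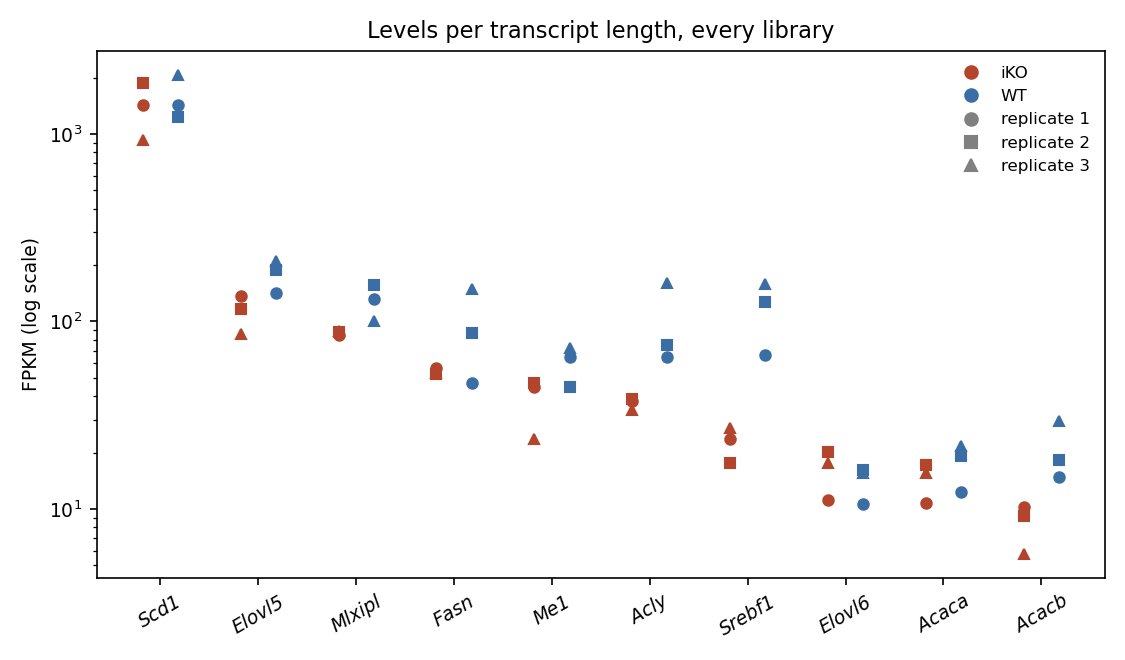
FPKM of the 10 genes in every liver on a log scale, ordered by their mean in livers labelled iKO (red, left of each pair) with WT livers in blue. Scd1 lies near 1411 FPKM in livers labelled iKO and 1579 FPKM in WT livers, above every other gene, and the groups are apart for Srebf1, Acly, Acacb, Elovl5 and Mlxipl.

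Without Scd1, the remaining 9 genes took 0.189%, 0.190% and 0.172% of the counts in livers labelled iKO, against 0.243%, 0.339% and 0.451% in WT livers. These raw count shares did not overlap. Summed as TMM-normalized CPM, the same 9 genes stood at 2424, 1916 and 1618 CPM in livers labelled iKO and at 2439, 2886 and 4335 CPM in WT livers, so on that scale iKO 1 and WT 1 nearly met. With Scd1 included the shares were 0.874%, 1.09% and 0.615% in livers labelled iKO and 0.925%, 0.932% and 1.44% in WT livers, which overlap. Scd1 made up 77.5%, 82.2% and 72.5% of the summed FPKM of the 10 genes in livers labelled iKO, against 72.0%, 62.8% and 69.3% in WT livers.

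Within the groups the genes placed the livers in a largely shared order in TMM-normalized CPM. WT 3 was the highest WT liver for 9 of 10 genes, the exception being Mlxipl, for which it was the lowest. WT 1 was the lowest WT liver for 6 of 10. Among livers labelled iKO, iKO 3 was the lowest for 7 of 10 and iKO 1 the highest for 7 of 10. The place of iKO 1 depends on the scale, since its TMM factor of 0.780 raises its CPM relative to its FPKM. Of the genes highest in iKO 1 by CPM, only Acacb, Fasn and Elovl5 were also highest there in FPKM. Acly and Me1 were then highest in iKO 2, and Srebf1 and Mlxipl in iKO 3. The same counts over all tested genes were not made. After the group means were removed, the log2 CPM of Acacb and Elovl5 had a Pearson correlation of 0.95 over the 6 libraries, that of Scd1 and Me1 0.95 and that of Fasn and Srebf1 0.89, while that of Mlxipl and Acaca was -0.76. These are descriptions of 6 libraries whose values share a depth and a normalization.

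The genes whose log2 CPM ran most nearly parallel over the 6 libraries were named for the factors and the synthase, among 7691 genes of at least 10 CPM on average. For Srebf1 they were Tuba4a (Pearson r = 0.993), Igf2r (0.992) and Btg1 (0.992). For Mlxipl they were Hectd2 (0.994), Ncor1 (0.992) and Trim25 (0.961). For Fasn they were C1qa (0.992), Ppp1r9b (0.991) and Laptm4b (0.988). C1qa, a complement gene of macrophages, stood at 71.7, 61.9 and 57.8 CPM in livers labelled iKO and at 57.4, 79.1 and 109 CPM in WT livers, which puts the 6 livers in the same order as Fasn does. The 6 points of each correlation are the same libraries, in groups of 3.

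The regulators of SREBP maturation were read next. Of 15 tested genes of SREBP processing and liver X receptor control, 1 rose and 2 fell (median log2 fold change -0.15). Insig1, which holds SREBPs in the endoplasmic reticulum and is itself induced by them, stood at 154, 168 and 187 CPM in livers labelled iKO and at 450, 465 and 630 CPM in WT livers. It fell by 1.60 on the log2 scale (SE 0.21; edgeR quasi-likelihood adjusted p = 0.00251), with no overlap, and stayed called when any 1 library was left out (adjusted p up to 0.0137), but not with a term for Y-linked reads (-1.41, adjusted p = 0.0564). Insig2, the second retention protein, stood at 102, 86.1 and 57.3 CPM in livers labelled iKO and at 253, 159 and 157 CPM in WT livers. It fell by 1.22 (SE 0.27; adjusted p = 0.0191), a call that ended without iKO 2, without iKO 3 or without WT 2 (adjusted p up to 0.0628) and that held with the Y-linked term (-1.63, adjusted p = 0.0448) but not in the libraries with Y-linked reads alone (-1.62, adjusted p = 0.0579).

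Lpin1, whose product makes diacylglycerol and in the nucleus lowers SREBP activity, moved the other way and furthest of the list. It stood at 1184, 877 and 607 CPM in livers labelled iKO and at 35.2, 37.9 and 80.9 CPM in WT livers (log2 fold change 4.12, SE 0.41; edgeR quasi-likelihood adjusted p = 0.000804). Its groups were far apart, and it stayed called in every alternative. Scap, the escort of SREBPs, stood at -0.39 on the log2 fold scale (adjusted p = 0.273), Srebf2, the cholesterol-side sister of Srebf1, -0.42 (adjusted p = 0.168), and Nr1h3, which encodes liver X receptor alpha, 0.16 (adjusted p = 0.628), none of them called.

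Of 17 tested SREBP1 and liver X receptor target genes outside the 10, 0 rose and 6 fell (Pnpla3, Gpam, Abca1, Abcg8, Mylip and Acsl3), with a median log2 fold change of -0.64. Gpam, the first acyltransferase of triglyceride synthesis, stood at 78.5, 94.1 and 96.4 CPM in livers labelled iKO and at 220, 220 and 319 CPM in WT livers (log2 fold change -1.50, SE 0.21; edgeR quasi-likelihood adjusted p = 0.00330). The groups did not overlap, and the call held when any 1 library was left out (adjusted p up to 0.0142), though not with a term for Y-linked reads (adjusted p = 0.0719). Pnpla3, a lipid droplet hydrolase, stood at 1.88, 0.748 and 1.86 CPM in livers labelled iKO and at 3.29, 15.5 and 21.9 CPM in WT livers (log2 fold change -3.19, SE 0.76; adjusted p = 0.0401), and WT 1 was much nearer to the livers labelled iKO than WT 2 and WT 3 were. Leaving out iKO 1, iKO 2, iKO 3, WT 2 or WT 3 ended that call (adjusted p up to 0.140). The log2 fold change of Pnpla3 was -1.15 with a term for Y-linked reads (adjusted p = 0.266) and -1.14 in the libraries that hold them (adjusted p = 0.431).

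The falls of the cholesterol exporter gene Abca1 (log2 fold change -0.80), its biliary relative Abcg8 (-0.75), the LDL receptor ligase gene Mylip (-1.30) and the acyl-CoA synthetase gene Acsl3 (-1.32) had edgeR quasi-likelihood adjusted p between 0.0157 and 0.0328. Each of these 4 calls ended without WT 2 (adjusted p up to 0.182). Those of Abcg8, Mylip and Acsl3 also ended without WT 3, those of Abca1, Abcg8 and Mylip without iKO 3, those of Abca1 and Abcg8 without iKO 2, those of Abca1 and Mylip without iKO 1, and that of Abca1 without WT 1. The fit with the Y-linked term gave log2 fold changes of -1.01 for Abca1, -0.41 for Abcg8, -0.68 for Mylip and -1.10 for Acsl3, and 0 of the 17 genes of the list were called. Thrsp, a lipogenic target known for its thyroid hormone response, had the highest fold change of the list and was not called, with 641, 268 and 324 CPM in livers labelled iKO and 163, 117 and 274 CPM in WT livers (log2 fold change 1.15; adjusted p = 0.0854). Its groups overlapped at iKO 2 and WT 3.

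Of 14 tested ChREBP partners and target genes, 1 rose and 0 fell. The median log2 fold change was 0.62, with 13 of the 14 above 0. The count depended on the method, with 5 higher and 1 lower by DESeq2, and 0 higher and 0 lower with a term for Y-linked reads or without WT 2. Tkfc, a kinase gene of fructose breakdown, stood at 855, 647 and 574 CPM in livers labelled iKO and at 274, 170 and 327 CPM in WT livers (log2 fold change 1.43, SE 0.28; edgeR quasi-likelihood adjusted p = 0.0123). Its call ended without WT 2 (adjusted p = 0.0521). Pklr, liver pyruvate kinase and a classical ChREBP target, stood at 364, 210 and 184 CPM in livers labelled iKO and at 136, 103 and 266 CPM in WT livers, overlapping and not called (log2 fold change 0.58; adjusted p = 0.330). Khk, ketohexokinase, was at 0.66 (adjusted p = 0.128), without overlap. The median of this list and that of the SREBP1 and liver X receptor targets thus lay on opposite sides of 0, and the difference between the lists was not tested.

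**Figure D5:**
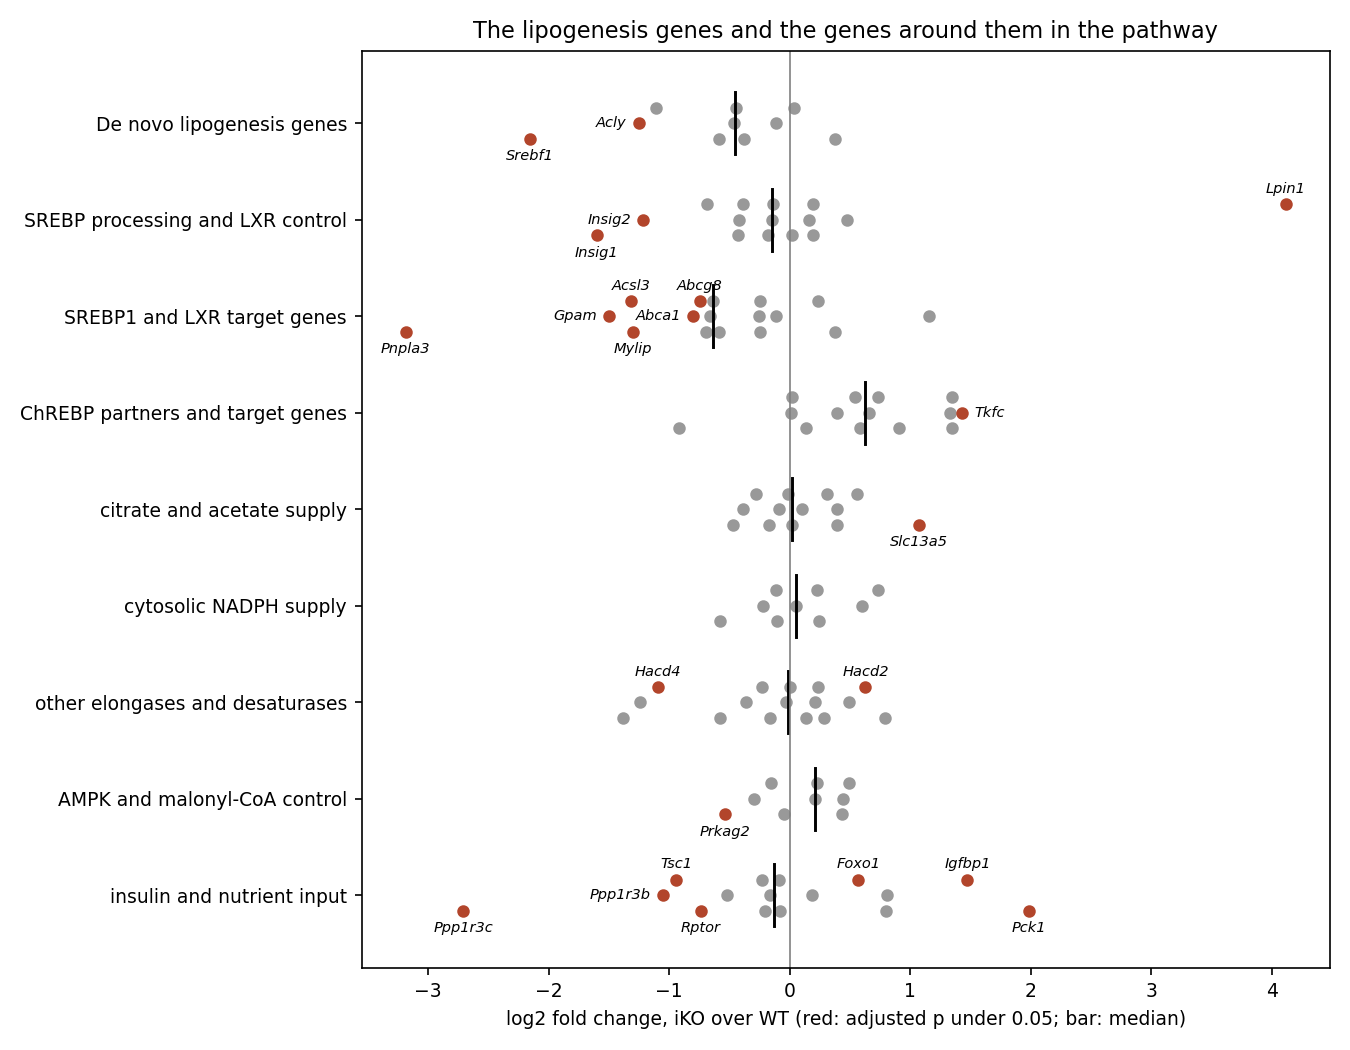
Log2 fold changes, livers labelled iKO over WT livers, of the 10 lipogenesis genes and of the tested genes around them, 1 row per list, with called genes in red and named, other genes in grey, and a black bar at each median. The SREBP1 and liver X receptor targets have their median at -0.64 and the ChREBP partners and targets at 0.62.

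Genes that supply carbon and reducing power to the pathway were mostly not called. Of 13 tested genes of citrate and acetate supply, 1 rose and 0 fell (median log2 fold change 0.02). The gene that rose was Slc13a5, a plasma citrate importer, at 7.66, 16.7 and 10.4 CPM in livers labelled iKO and 3.98, 5.51 and 7.06 CPM in WT livers (edgeR quasi-likelihood adjusted p = 0.0487), and leaving out any 1 of 5 libraries, all but iKO 1, ended its call (adjusted p up to 0.137). Slc25a1, the mitochondrial citrate exporter, stood at 344, 202 and 196 CPM in livers labelled iKO and at 197, 154 and 248 CPM in WT livers, with overlap. Of 9 tested genes of cytosolic NADPH supply, 0 rose and 0 fell (median 0.05), and G6pdx, the entry enzyme of the pentose phosphate pathway, stood at -0.58 on the log2 fold scale (adjusted p = 0.334).

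Of 16 tested other elongases, desaturases and enzymes of the elongation cycle, 1 rose and 1 fell (median -0.01). Hacd2 rose by 0.63 and Hacd4 fell by 1.10 on the log2 scale, both dehydratase genes of the elongation cycle (edgeR quasi-likelihood adjusted p = 0.0240 and 0.0396), and both calls ended without iKO 3, WT 2 or WT 3, and that of Hacd4 also without iKO 1 or iKO 2 (adjusted p of 0.134 for Hacd2 without WT 2). Scd2, the desaturase gene best known from brain, stood at 2.81, 6.93 and 15.2 CPM in livers labelled iKO and at 9.50, 27.9 and 28.3 CPM in WT livers, far below Scd1 and with overlap. Elovl3, a male-biased elongase gene, stood at 164, 10.1 and 2.33 CPM in livers labelled iKO and at 407, 2.66 and 4.59 CPM in WT livers, so its spread within each group was far larger than any difference between them. Elovl2, which lengthens polyunsaturated fatty acids, did not overlap, at 340, 295 and 266 CPM in livers labelled iKO and 425, 413 and 507 CPM in WT livers, and was not called (log2 fold change -0.58; adjusted p = 0.0741).

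On the side of control by energy and malonyl-CoA, 0 of 9 tested genes rose and 1 fell (median 0.21). Prkag2, a regulatory subunit of AMPK, fell by 0.54 on the log2 scale (edgeR quasi-likelihood adjusted p = 0.0338), a call that ended without any 1 library other than iKO 2 (adjusted p up to 0.159). Cpt1a, the carnitine transferase gene that malonyl-CoA inhibits, stood at 265, 358 and 282 CPM in livers labelled iKO and at 225, 222 and 195 CPM in WT livers, without overlap and not called (log2 fold change 0.49; adjusted p = 0.110). Mlycd, whose product breaks malonyl-CoA down, was likewise without overlap and not called (log2 fold change 0.44; adjusted p = 0.111).

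Of 16 tested genes of insulin and nutrient input, 3 rose and 4 fell (median -0.13). Pck1, a gluconeogenic gene that insulin represses, stood at 3098, 4200 and 3306 CPM in livers labelled iKO and at 833, 1062 and 779 CPM in WT livers (log2 fold change 1.99, SE 0.25; edgeR quasi-likelihood adjusted p = 0.00218), with no overlap. Igfbp1, also repressed by insulin, rose by 1.47 (adjusted p = 0.00595). Foxo1, the factor gene through which insulin represses both, rose by 0.57 (adjusted p = 0.0421). The call of Foxo1 ended in 5 of the fits that left out 1 library, all but that without iKO 3 (adjusted p up to 0.161), while those of Pck1 and Igfbp1 held in all 6.

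Among the 4 that fell, Ppp1r3c, a glycogen-targeting subunit, stood at 18.3, 14.4 and 8.82 CPM in livers labelled iKO and at 110, 71.8 and 89.2 CPM in WT livers (log2 fold change -2.71; edgeR quasi-likelihood adjusted p = 0.000867). Its relative Ppp1r3b fell by 1.05 (adjusted p = 0.00648), and Tsc1 and Rptor, which restrain and form mTORC1, fell by 0.94 and 0.74 (adjusted p = 0.00473 and 0.0171). The call of Rptor ended without iKO 3, without WT 2 or without WT 3 (adjusted p up to 0.0827). Of the called genes named in these lists around the pathway, Insig2, Lpin1 and Ppp1r3c stayed called with a term for Y-linked reads, Lpin1 and Ppp1r3c in the libraries with such reads alone, and the others in neither fit.

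Markers of cell types were read beside these values. Adipocytes also express lipogenesis genes. Of 12 adipocyte markers listed, 6 were abundant enough to test and 2 of them rose (Cidec and Plin4, lipid droplet genes that fatty hepatocytes also express), with a summed level of 43.5 to 51.8 CPM in livers labelled iKO and 32.3 to 36.8 CPM in WT livers. The defining adipocyte genes Adipoq and Retn lay at or near 0 in every liver, with Adipoq at 0, 0.107 and 0 CPM in livers labelled iKO and 0.0531, 0 and 0 CPM in WT livers. Hepatocyte markers summed to between 127100 and 155200 CPM in livers labelled iKO and between 124600 and 137400 CPM in WT livers, with 1 of 9 higher and 0 lower. Markers of stellate cells and fibroblasts, of Kupffer cells and of sinusoidal endothelium had lower sums in livers labelled iKO. Of the stellate cell and fibroblast markers 8 of 12 fell (summed 160 to 231 CPM against 352 to 588 CPM in WT livers). Of the Kupffer cell markers 6 of 12 fell (320 to 407 CPM against 450 to 850 CPM). Of the sinusoidal endothelial markers 5 of 12 fell (89.5 to 186 CPM against 218 to 347 CPM). WT 1, the WT liver with Y-linked reads, had the lowest WT sum of each, at 352, 450 and 218 CPM, still above every liver labelled iKO. Of the neutrophil markers 5 of 9 fell, of the cholangiocyte markers 1 of 8, and of the 8 T, NK and B cell and 4 erythroid markers 0 did, with 0 risen in these 4 lists. The marker calls were not read under the alternatives, among them the fits for Y-linked reads. The part of these cell types in the values of the lipogenesis genes was not tested.

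The 10 genes lie on 5 chromosomes. Srebf1, Acaca, Acly and Fasn are on chromosome 11, Acacb and Mlxipl on chromosome 5, Elovl5 and Me1 on chromosome 9, Elovl6 on chromosome 3 and Scd1 on chromosome 19. In the pathway terms of the deposited table, 5 of the 10 carry AMPK signaling (of 122 genes in the table with that term) and 5 carry fatty acid metabolism (of 51). Effective transcript lengths ran from 2725 bases in Elovl5, above 47.7% of tested genes, to 9380 bases in Fasn, above 97.8%, with Acaca at 9009 and Acacb at 8404 bases. Across all tested genes the log2 fold change fell with transcript length (Spearman rho = -0.353, across genes, which are not independent replicates). With an offset that removes this trend in each library, the log2 fold change was -1.96 for Srebf1 (edgeR quasi-likelihood adjusted p = 0.0126), -1.06 for Acly (adjusted p = 0.125), -0.85 for Acacb (adjusted p = 0.267) and -0.34 for Fasn (adjusted p = 0.660). The median of the 10 genes was -0.36 with that offset, beside -0.01 over all tested genes.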

How the data were processed

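RNA-seq was analysed for 3 livers labelled iKO and 3 WT livers. According to the submitters' processing notes the tools were RSEM 1.2.12, HISAT2 2.0.4 and Bowtie2 2.2.5, on build mm9; whether strand was counted is not given here. The authors deposited expected counts, which need not be whole, FPKM, scaled by depth and transcript length, and TPM, scaled to a common total. Expected counts were rounded and tested with edgeR 4.0.16 (R 4.3.3) by filterByExpr, TMM, a robust quasi-likelihood F test and Benjamini-Hochberg adjustment over 13160 genes, threshold 0.05. Standard errors were derived from the fold change and F. FPKM served for levels between genes and the TPM for an alternative. The 10 genes, the gene lists and the tests were chosen with earlier results of these data known. Named are the 10 genes, called genes of each list, a set chosen by role, and the 3 genes most parallel to Srebf1, Mlxipl and Fasn.

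Libraries of 18139500 to 19912000 counts leave counting error small beside the spread between livers for the 10 genes. Their smallest count was 872, for Acacb in iKO 3. Counting error weighs more for scarce genes such as Pnpla3 and Adipoq. Every pair of libraries differed by more than sampling noise. Alternatives were RLE factors, no filter, DESeq2 1.42.0, a replicate block, limma-trend (limma 3.58.1) on log2 FPKM with 1 or 0.1 added, each library left out in turn, a term for Y-linked reads (over 10 counts of Ddx3y and Kdm5d), only the 4 libraries with such reads, and a lowess offset for effective length (span 0.3). A count was taken as whole within 0.001. Shared exons and similar transcripts came from GENCODE M21 and blastn 2.17.0, upstream sequence from RefSeq GRCm38.p6. On data simulated for this comparison over 13160 genes, 49% of 100 genes changed 2-fold and 94% of 100 changed 4-fold were recovered, with 14 of 157 calls false. The changed genes were drawn above a floor of mean CPM. The simulation held no split in Y-linked reads and no trend with transcript length, so its rates need not hold for the real libraries.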

Additional observations from a re-analysis of the deposited data

How the results depend on the processing

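Of the 10 genes, Srebf1 kept its direction in all 16 alternatives and its call in 14, and Acly kept its direction in 16 and its call in 5. Of the 160 fold changes of the 10 genes under alternatives, 131 kept both direction and side of the threshold. The number of the 10 genes called lower was 1 with RLE factors, with limma-trend on log2(FPKM + 1) over every gene above 0 in 1 library, with the replicate block and with the length offset, and 0 with the term for Y-linked reads and in the libraries with Y-linked reads alone. It was 3, with Acacb added, by DESeq2 and by limma-trend over the filtered genes with either pseudocount on FPKM, and it ran from 1 to 2 with 1 library left out. The log2 fold change of Acaca turned positive with the term for Y-linked reads (0.29), in the libraries with such reads (0.29) and with the length offset (0.12), and ran from -0.28 to 0.080 with 1 library left out. That of Fasn turned to 0.32 and 0.33 in the fits for Y-linked reads. That of Scd1 turned to -0.19 with limma-trend on log2(FPKM + 1), filtered or not, and on log2(FPKM + 0.1), and ran from -0.13 to 0.36 with 1 library left out. The difference in the log2 ratio of Acaca to Acacb was 1.02 from TPM as well and ran from 0.71 to 1.38 with 1 library left out. For all of these the cause was not tested, except that the Y-linked fits rest on WT 1 alone.

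Over all genes, 962 were called higher and 1062 lower. With limma-trend on log2(FPKM + 1) 421 were called higher and with log2(FPKM + 0.1) 427, so higher calls made up 31.1% and 31.6% of calls beside 47.5%; the median of all genes was -0.12 and -0.20 on those scales. Over every gene above 0 in 1 library limma-trend called 258 higher and 536 lower. With the term for Y-linked reads 78 were called higher and 106 lower, and in the libraries with such reads 66 and 77. With 1 library left out, 228 to 922 were called higher and 263 to 1096 lower, fewest without WT 2. Deviations of libraries with the same number correlated at 0.21, 0.21 and 0.05 across genes, and iKO 3 correlated best with WT 2 (0.33), so the numbers were not taken as pairs; with the replicate block 772 genes were called higher and 938 lower. Of 33 called genes in the lists beside the 10 genes, 17 stayed called in every fit that left out 1 library and 9 with the term for Y-linked reads.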
